A study of Mus musculus with 12 samples.

Results

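Acly, Acss2, Acaca, Fasn, Scd1, Scd2, Fads1, Fads2, Elovl5 and Elovl6 encode the enzymes that make, desaturate and lengthen fatty acids, and they were followed in Eµ-Myc lymphoma cells under 3 conditions of growth. The 10 genes were listed by symbol for their place in the pathway, and each matched a single identifier among the 56748 gene identifiers counted. Poly(A) RNA was sequenced from 12 libraries of this mouse B cell lymphoma line, whose Myc transgene is driven by an immunoglobulin heavy chain enhancer. Cells of the hematogenous group (4 libraries) were sorted from lymph nodes on day 18 after injection, having spread systemically through the blood, and those of the lymphatic group (4 libraries) were sorted from lymph nodes on day 11, having spread along lymphatic vessels. Cells of the culture group (4 libraries) came straight from culture, although their tissue label also reads lymph node. All groups carry the same line and transgene, and the labels give no host strain, age, sex, cell dose or sort marker. Route and day of collection cannot be told apart, since each route has its own day. No label ties a library to its own animal or flask, and p-values therefore reflect variation among these libraries, which may be technical.

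Fatty acid synthesis starts in the cytosol, where Acly cleaves citrate and Acss2 activates acetate to supply acetyl-CoA. Acaca carboxylates acetyl-CoA to malonyl-CoA, the committed step, and Fasn builds palmitate from both. Elovl6 lengthens palmitate to stearate, Scd1 and Scd2 place a double bond in the saturated chain, and Fads2, Elovl5 and Fads1 act in turn on dietary essential fatty acids to make the long polyunsaturated chains. SREBP transcription factors, which are released from the endoplasmic reticulum when sterols are scarce, are known to drive most of these genes together with sterol synthesis, and NF-Y and Sp1 are known to act with SREBP on several of their promoters.

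Among the 10 genes, 7 had a promoter in the RefSeq table of the mouse build GRCm38.p6, which is not the build of the counts. Those of Fads2, Acss2, Elovl5 and Elovl6 are shown because these genes differed between the routes. Each runs from 250 bases before to 50 bases after the annotated start, 5′ to 3′ on the strand of the gene. Capitals mark the NF-Y box CCAAT, the GC box GGGCGG and the E-box CACGTG on either strand. The sequences lie at chr19:10101454-10101753 (minus strand) for Fads2, chr2:155517793-155518092 (plus strand) for Acss2, chr9:77917115-77917414 (plus strand) for Elovl5 and chr3:129532136-129532435 (plus strand) for Elovl6.
Fads2: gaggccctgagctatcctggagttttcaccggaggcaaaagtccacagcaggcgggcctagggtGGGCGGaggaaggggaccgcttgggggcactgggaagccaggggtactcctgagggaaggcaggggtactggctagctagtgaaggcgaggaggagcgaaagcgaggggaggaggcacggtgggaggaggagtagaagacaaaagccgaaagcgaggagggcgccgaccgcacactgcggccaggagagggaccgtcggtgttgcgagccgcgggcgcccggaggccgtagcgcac
Acss2: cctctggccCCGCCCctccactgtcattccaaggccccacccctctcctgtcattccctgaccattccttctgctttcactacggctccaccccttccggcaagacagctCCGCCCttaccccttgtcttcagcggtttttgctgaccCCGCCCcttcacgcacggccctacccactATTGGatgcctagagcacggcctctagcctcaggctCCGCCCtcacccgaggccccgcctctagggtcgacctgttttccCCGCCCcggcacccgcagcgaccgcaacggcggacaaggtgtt
Elovl5: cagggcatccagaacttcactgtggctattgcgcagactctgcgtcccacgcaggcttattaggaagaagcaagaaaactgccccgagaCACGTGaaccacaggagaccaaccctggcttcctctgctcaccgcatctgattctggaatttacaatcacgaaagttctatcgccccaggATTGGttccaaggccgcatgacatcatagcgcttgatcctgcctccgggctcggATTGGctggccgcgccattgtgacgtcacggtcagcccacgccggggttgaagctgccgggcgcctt
Elovl6: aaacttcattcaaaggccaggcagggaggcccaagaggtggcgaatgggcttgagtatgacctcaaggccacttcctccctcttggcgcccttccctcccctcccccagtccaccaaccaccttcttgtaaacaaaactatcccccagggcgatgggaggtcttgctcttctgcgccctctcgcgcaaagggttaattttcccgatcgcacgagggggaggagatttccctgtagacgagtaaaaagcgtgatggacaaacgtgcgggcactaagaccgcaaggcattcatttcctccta
The NF-Y box occurred in 4 of the 7 promoters (Acly, Acss2, Elovl5 and Fasn), against 37.4% of all 32851 promoters in the table. Fasn held 3 NF-Y boxes, of which a pair on opposite strands overlap. The GC box occurred in 3 of 7 (4 matches in Acly, 5 in Acss2 and 1 in Fads2), against 35.7% of all promoters, and the E-box in Elovl5 alone, against 7.15%. A sterol element written as TCACNCCAC was found in 0 of 7 and in 1.24% of all promoters, and an LXR repeat, written as AGGTCA and again AGGTCA after 4 free bases, in 0 of 7 and in 0.0152% of all. These matches describe letters in a window, and their part in the levels below was not tested.

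Assigned counts ran between 5286775 and 12444690 in the hematogenous libraries, between 12399951 and 25302016 in the lymphatic libraries and between 5655422 and 12738568 in the culture libraries. Lymphatic 4 stood apart, with 15.4% of its counts on ribosomal protein genes against 7.41% to 9.61% in the other 11 libraries. The labelled B cell type was checked with 7 markers, whose summed level was 3282 to 3454 CPM (read counts scaled to library size) in hematogenous libraries, 2162 to 2581 CPM in lymphatic libraries and 2362 to 2429 CPM in culture libraries. All 7 markers had counts in every group, although their levels differed. The surface marker Ms4a1 was 68.3 to 95.0 CPM in hematogenous and 10.2 to 22.9 CPM in lymphatic libraries, and stayed at or below 0.967 CPM in culture. Of the 7 markers, 5 were higher and 0 lower in hematogenous cells than in culture. In lymphatic cells 3 were higher and 2 lower than in culture, and 4 were higher and 0 lower in hematogenous than in lymphatic cells. Summed T cell markers reached 5.78 to 15.6 CPM in hematogenous libraries, 19.1 to 86.6 CPM in lymphatic libraries and 0 to 0.622 CPM in culture libraries, where Cd3d, Trbc1, Trbc2, Cd4 and Cd8a had 0 counts. Of the 9 T cell markers, 8 were higher in hematogenous cells and 9 in lymphatic cells than in culture, and 8 were lower in hematogenous than in lymphatic cells. Summed macrophage markers were 19.2 to 26.5 CPM in hematogenous libraries, 27.7 to 70.05 CPM in lymphatic libraries and 14.8 to 19.9 CPM in culture libraries, where Lyz2, C1qa, C1qb and C1qc had 0 counts. Of 5 macrophage markers tested, 3 were higher and 2 lower in each lymph node group than in culture. Csf1r was highest in culture, at 7.49 to 11.1 CPM, against 0.570 to 2.45 CPM in hematogenous and 2.98 to 4.71 CPM in lymphatic libraries. Itgam was also highest in culture, at 3.30 to 6.11 CPM, against 0.642 to 1.14 CPM in hematogenous and 0.203 to 1.18 CPM in lymphatic libraries. Summed endothelial markers were 139.6 to 168 CPM in hematogenous libraries, 80.2 to 115 CPM in lymphatic libraries and 75.7 to 80.2 CPM in culture libraries. Pecam1, a surface protein that leukocytes also carry, made up most of that sum, at 136 to 163 CPM in hematogenous libraries, 79.3 to 114 CPM in lymphatic libraries and 72.7 to 78.6 CPM in culture libraries. Cdh5 was at most 4.99 CPM in any library, and Lyve1, Prox1 and Flt4 had 0 counts in all hematogenous libraries, as did Prox1 in all lymphatic libraries. Summed NK cell markers were 0.190 to 1.94 CPM in hematogenous libraries, 0.947 to 8.55 CPM in lymphatic libraries and 18.6 to 22.7 CPM in culture libraries, where Ncr1, Klrd1, Nkg7 and Klre1 had 0 counts. The culture sum was thus Klrb1c alone, which was at most 0.391 CPM in hematogenous and 0.946 CPM in lymphatic libraries. The 4 markers without counts in culture reached at most 3.65 CPM in lymph node libraries (Nkg7 in lymphatic 4). Among the lymphatic libraries, lymphatic 4 held the highest sums of T cell, macrophage and NK cell markers, with Trbc2 at 18.8 CPM and Lyz2 at 42.1 CPM. The part of these other cells in the results was not tested. Adipocytes, which make much fatty acid, left next to no trace, since 6 adipocyte markers summed to at most 0.321 CPM in hematogenous, 0.225 CPM in lymphatic and 0.521 CPM in culture libraries, with Lep and Cidec at 0 counts in all. In bulk RNA, fewer cells of a type and less RNA per cell cannot be told apart.

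The pathway as a whole was lower in both lymph node groups than in culture. Of the 10 genes, all of which passed the filter on low counts, 9 were lower and 0 higher in hematogenous cells than in culture (edgeR quasi-likelihood test, Benjamini-Hochberg adjusted p under 0.05 over 13535 genes), where 13.9% of all tested genes were lower and 13.9% higher. Likewise 9 were lower and 0 higher in lymphatic cells than in culture, where 13.0% of all tested genes were lower and 13.4% higher. Acaca was the gene that missed the threshold in both comparisons. The median log2 change of the 10 genes was −1.22 in hematogenous cells, against −0.00075 over all genes, and −1.30 in lymphatic cells, against 0.04 over all genes. For all 10 genes every library of either lymph node group was below every culture library, which held for 21.8% of all genes in the hematogenous comparison and 15.5% in the lymphatic comparison. Both comparisons share the culture libraries.

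Between the routes the pathway split. Of the 10 genes, 4 were lower in hematogenous than in lymphatic cells (Acss2, Fads1, Fads2 and Elovl5), where 11.4% of all tested genes were lower, and Elovl6 was higher, where 10.9% of all tested genes were higher. These 5 had hematogenous libraries entirely below or, for Elovl6, entirely above the lymphatic libraries, which held for 11.5% of all genes below and 13.1% above, and the other 5 overlapped. Summed over the 10 genes, the level was 1834 ± 102 CPM in hematogenous cells and 1772 ± 525 CPM in lymphatic cells, against 5185 ± 196 CPM in culture (SD, n = 4 each). The lymphatic sum ran from 1141 CPM in lymphatic 4 to 2412 CPM in lymphatic 3, a wider spread than in the other groups. Scd2 alone gave 18.9% to 22.4% of this sum in hematogenous libraries and 26.1% to 32.3% in lymphatic libraries, against 44.0% to 44.8% in culture libraries.

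**Figure D1:**
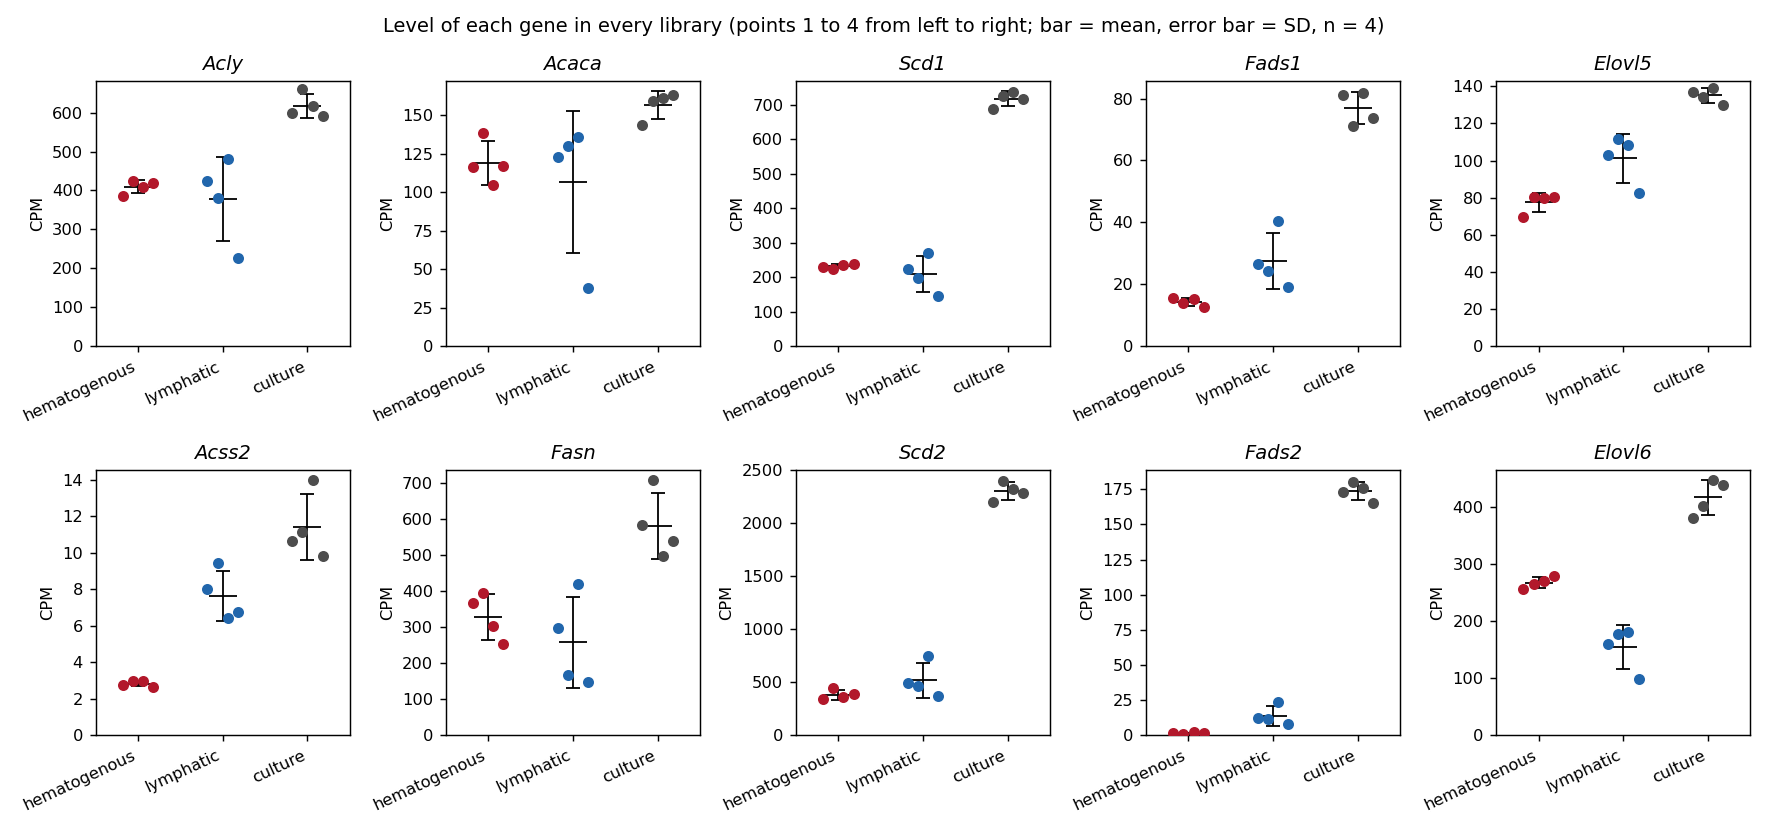
CPM (vertical axis, from 0) of each of the 10 genes in every library, with hematogenous, lymphatic and culture libraries from left to right, points for libraries 1 to 4, and a bar and error bar for the mean and SD (n = 4). All lymph node libraries lie below all culture libraries for each gene, Fads2 lies near 0 in hematogenous libraries (0.842 to 1.86 CPM), and lymphatic 4 is far below its group for Acaca (38.1 CPM).

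The enzymes that supply acetyl-CoA both fell, Acss2 more steeply in hematogenous cells. Acly had 386, 424, 408 and 420 CPM in hematogenous libraries 1 to 4 and 425, 380, 480 and 227 CPM in lymphatic libraries 1 to 4, against 599, 659, 616 and 591 CPM in culture libraries 1 to 4. Its lymph node groups overlapped and both lay below culture, with lymphatic 4 the lowest library. The log2 change of Acly against culture was −0.59 ± 0.17 (SE, adjusted p = 0.0196) in hematogenous cells and −0.70 ± 0.17 (adjusted p = 0.00833) in lymphatic cells. Without culture 2 or without hematogenous 1 the hematogenous call was lost (adjusted p = 0.0552 and 0.0575). Between the routes Acly differed by 0.11 ± 0.17 (adjusted p = 0.668), a difference that turned to −0.058 without lymphatic 4.

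Acss2, the acetate-activating enzyme, had 2.73, 2.95, 2.94 and 2.66 CPM in hematogenous libraries 1 to 4 and 7.98, 9.41, 6.39 and 6.75 CPM in lymphatic libraries 1 to 4, against 10.7, 11.1, 14.0 and 9.79 CPM in culture libraries 1 to 4. The 3 groups did not overlap and hematogenous cells had the lowest level, on 34, 35, 30 and 14 reads in hematogenous libraries 1 to 4. Its log2 change against culture was −2.01 ± 0.19 (adjusted p = 2.90e-06) in hematogenous cells, 4.02-fold lower, and −0.57 ± 0.17 (adjusted p = 0.0256) in lymphatic cells. Hematogenous cells were 2.70-fold below lymphatic cells (log2 change −1.43 ± 0.19, adjusted p = 1.97e-04). The lymphatic call rested on single libraries, since its adjusted p was 0.0536 without culture 2, 0.0987 without culture 3 and 0.0549 without lymphatic 3. Exons of Acss2 overlap Ggt7, Acss2os and Gss on the other strand, and the strand setting of the counting is not given in the sources used here, so reads of these genes may be mixed in.

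Of the palmitate-making pair, Fasn was called in both comparisons with culture and Acaca in neither. Acaca had 116, 139, 104 and 117 CPM in hematogenous libraries 1 to 4 and 123, 130, 136 and 38.1 CPM in lymphatic libraries 1 to 4, against 143, 159, 161 and 163 CPM in culture libraries 1 to 4. Every lymph node library lay below culture, and lymphatic 4 lay far below the rest of its group. The log2 change against culture was −0.40 ± 0.28 (adjusted p = 0.340) in hematogenous cells and −0.55 ± 0.28 (adjusted p = 0.167) in lymphatic cells. Without lymphatic 4 both passed the threshold, at −0.39 (adjusted p = 0.00151) in hematogenous cells and −0.28 (adjusted p = 0.0270) in lymphatic cells. The difference between the routes was 0.16 ± 0.28 (adjusted p = 0.723) and turned to −0.12 without lymphatic 4. Of the 50-base windows of Acaca, 30.4% also occur in another gene, among them Gm5182, so some of its reads may be lost or shared.

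Fasn, the synthase itself, had 368, 393, 302 and 251 CPM in hematogenous libraries 1 to 4 and 298, 166, 419 and 148 CPM in lymphatic libraries 1 to 4, against 582, 708, 496 and 539 CPM in culture libraries 1 to 4. It varied more among lymphatic libraries, with a coefficient of variation of 49.1%, than among hematogenous (19.5%) or culture libraries (15.7%). Relative to culture its log2 change was −0.82 ± 0.28 (adjusted p = 0.0398) in hematogenous cells and −1.17 ± 0.28 (adjusted p = 0.00683) in lymphatic cells. The routes overlapped, with a difference of 0.35 ± 0.28 (adjusted p = 0.377). The hematogenous call was lost on leaving out any 1 of culture 1, 2, 3 or 4 or hematogenous 1, 3 or 4, with adjusted p between 0.0502 and 0.118.

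The stearoyl-CoA desaturases Scd1 and Scd2 fell in both lymph node groups, and Scd2, the most abundant transcript of the pathway in culture, fell further. Scd1 had 231, 224, 236 and 240 CPM in hematogenous libraries 1 to 4 and 225, 197, 271 and 145 CPM in lymphatic libraries 1 to 4, against 687, 726, 738 and 718 CPM in culture libraries 1 to 4. The lymph node groups overlapped, far below culture. The log2 change against culture was −1.62 ± 0.15 (adjusted p = 2.39e-06) in hematogenous cells and −1.78 ± 0.15 (adjusted p = 1.72e-06) in lymphatic cells. Between the routes Scd1 differed by 0.15 ± 0.15 (adjusted p = 0.481).

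Scd2 had 337, 445, 356 and 385 CPM in hematogenous libraries 1 to 4 and 487, 459, 747 and 369 CPM in lymphatic libraries 1 to 4, against 2195, 2400, 2326 and 2280 CPM in culture libraries 1 to 4. Lymphatic 3 was the highest lymph node library, and the routes overlapped. Against culture the log2 change was −2.59 ± 0.19 (adjusted p = 2.13e-07) in hematogenous cells, 6.04-fold lower, and −2.16 ± 0.18 (adjusted p = 1.64e-06) in lymphatic cells, 4.46-fold lower. The difference between the routes was −0.44 ± 0.18 (adjusted p = 0.0919), and −0.56 (adjusted p = 0.00636) without lymphatic 4. Scd1 and Scd2 share 4.56% and 3.97% of their 50-base windows with other genes, among them Scd3 and Scd4.

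Fads2, the entry enzyme of polyunsaturated fatty acid synthesis, showed the steepest change of the 10 genes in each comparison. It had 1.36, 0.842, 1.86 and 1.14 CPM in hematogenous libraries 1 to 4 and 11.8, 11.6, 23.6 and 7.53 CPM in lymphatic libraries 1 to 4, against 173, 180, 176 and 165 CPM in culture libraries 1 to 4. The 3 groups were separate, and the hematogenous values rest on 17, 10, 19 and 6 reads in hematogenous libraries 1 to 4. The log2 change against culture was −7.04 ± 0.36 (adjusted p = 1.18e-08) in hematogenous cells, 132-fold lower, and −3.68 ± 0.28 (adjusted p = 5.87e-07) in lymphatic cells, 12.8-fold lower. Hematogenous cells were 10.3-fold below lymphatic cells (log2 change −3.36 ± 0.35, adjusted p = 4.43e-05). Over all settings tried the log2 change stayed between −7.27 and −6.85 for hematogenous cells against culture, between −4.07 and −3.50 for lymphatic cells against culture and between −3.59 and −2.97 between the routes.

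Fads1, the desaturase that acts after Fads2 and Elovl5, followed the same order of groups with smaller steps. It had 15.7, 13.9, 15.3 and 12.7 CPM in hematogenous libraries 1 to 4 and 26.7, 24.3, 40.5 and 19.1 CPM in lymphatic libraries 1 to 4, against 81.0, 71.2, 81.7 and 73.9 CPM in culture libraries 1 to 4. No groups overlapped. Its log2 change against culture was −2.41 ± 0.20 (adjusted p = 6.38e-07) in hematogenous cells and −1.48 ± 0.19 (adjusted p = 5.62e-05) in lymphatic cells. Hematogenous cells were 1.91-fold below lymphatic cells (log2 change −0.93 ± 0.19, adjusted p = 0.00364).

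The elongases moved in opposite directions between the routes. Elovl5, which lengthens polyunsaturated chains, had 69.6, 80.5, 79.6 and 80.2 CPM in hematogenous libraries 1 to 4 and 103, 112, 108 and 82.3 CPM in lymphatic libraries 1 to 4, against 137, 134, 139 and 130 CPM in culture libraries 1 to 4. The groups did not overlap, although lymphatic 4 came close to the hematogenous libraries. The log2 change against culture was −0.80 ± 0.11 (adjusted p = 7.93e-05) in hematogenous cells and −0.42 ± 0.11 (adjusted p = 0.0120) in lymphatic cells. The difference between the routes was −0.39 ± 0.11 (adjusted p = 0.0214), which became −0.33 (adjusted p = 0.0797) without hematogenous 1.

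Elovl6, which lengthens palmitate, had 255, 264, 270 and 280 CPM in hematogenous libraries 1 to 4 and 160, 177, 181 and 98.4 CPM in lymphatic libraries 1 to 4, against 381, 402, 446 and 438 CPM in culture libraries 1 to 4. Here lymphatic cells were lowest, and the groups did not overlap. Relative to culture its log2 change was −0.64 ± 0.16 (adjusted p = 0.00695) in hematogenous cells and −1.44 ± 0.16 (adjusted p = 1.99e-05) in lymphatic cells. Hematogenous cells were 1.73-fold above lymphatic cells (log2 change 0.79 ± 0.16, adjusted p = 0.00308), a call kept on leaving out each library in turn.

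**Figure D2:**
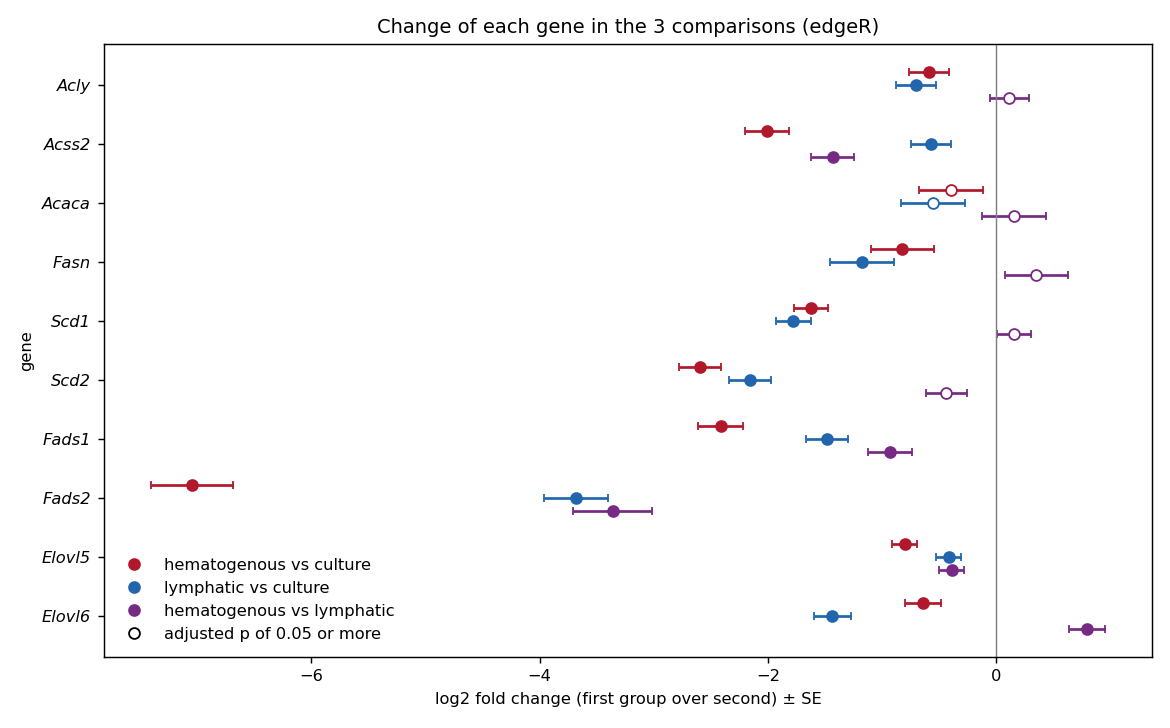
Log2 fold change (horizontal axis) of each gene (vertical axis) with its SE in the 3 comparisons, filled where the adjusted p was under 0.05 and open otherwise. Against culture all changes lie left of 0, with Fads2 farthest at −7.04 in hematogenous and −3.68 in lymphatic cells, and between the routes Elovl6 alone is called to the right, at 0.79.

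Ratios of paired enzymes within a library do not depend on how libraries are scaled. The ratio of Scd2 to Scd1 counts, with no term for length, was 1.46 to 1.98 in hematogenous libraries and 2.17 to 2.75 in lymphatic libraries, against 3.15 to 3.31 in culture libraries. The ratio of Fads2 to Fads1 counts was 0.0634 to 0.125 in hematogenous libraries and 0.396 to 0.583 in lymphatic libraries, against 2.14 to 2.52 in culture libraries. Both ratios ordered the groups alike, with hematogenous lowest and no overlap. On the log2 scale the Scd2 to Scd1 ratio differed by −0.98 in hematogenous and −0.39 in lymphatic cells from culture and by −0.58 between hematogenous and lymphatic cells. The Fads2 to Fads1 ratio differed by −4.64 in hematogenous and −2.26 in lymphatic cells from culture and by −2.37 between hematogenous and lymphatic cells. Each of these 6 differences had p = 0.0286, the smallest p that the 70 arrangements of 4 against 4 libraries allow (two-sided exact permutation test), and adjusted p = 0.0321 over 9 tests.

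The Elovl6 to Elovl5 ratio set the lymphatic cells apart. It was 3.28 to 3.67 in hematogenous libraries and 1.19 to 1.67 in lymphatic libraries, against 2.78 to 3.37 in culture libraries. Hematogenous and culture libraries overlapped, and their difference of 0.16 on the log2 scale did not pass (exact permutation p = 0.0571, adjusted p = 0.0571). Lymphatic cells lay below both, by −1.05 against culture, while hematogenous cells exceeded lymphatic cells by 1.21 (exact permutation p = 0.0286 and adjusted p = 0.0321 for each).

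**Figure D3:**
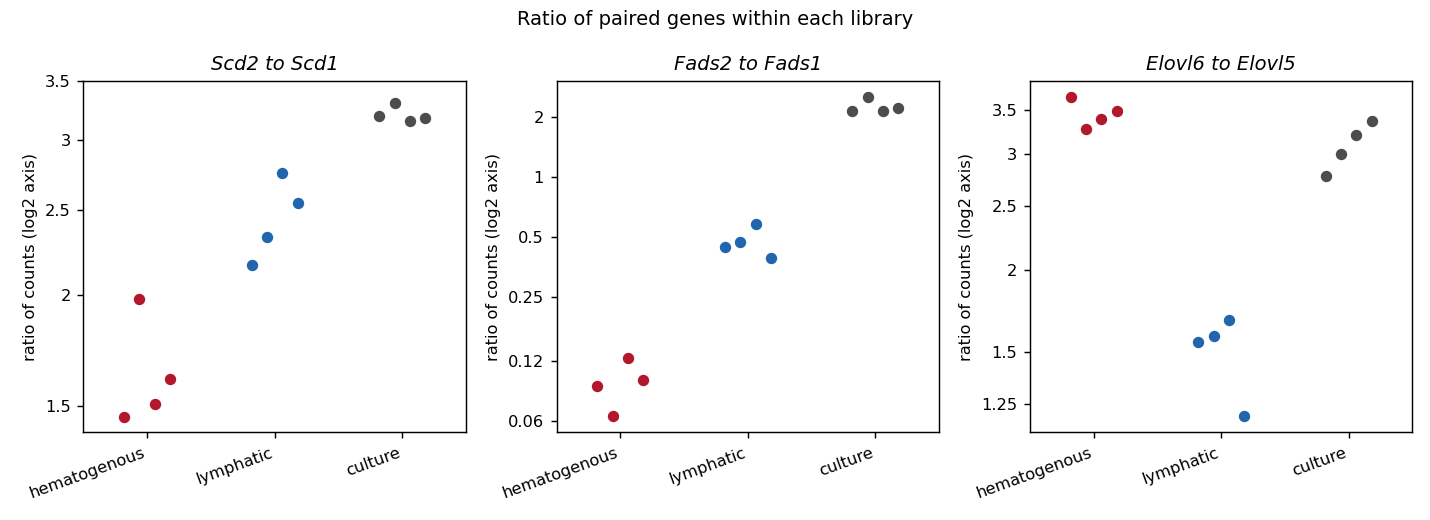
Ratio of the counts of paired genes (vertical axes, log2 scale) in every library of the hematogenous, lymphatic and culture groups. The Scd2 to Scd1 and Fads2 to Fads1 ratios step up over the groups from left to right without overlap, and the Elovl6 to Elovl5 ratio is low in the 4 lymphatic libraries (1.19 to 1.67).

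Levels were compared between genes per kilobase of the longest coding transcript, as mean CPM per kb ± SD over 4 libraries. In hematogenous cells Acly led with 92.5 ± 3.86, followed by Scd2 with 69.8 ± 8.65, Scd1 with 48.2 ± 1.38, Elovl6 with 44.9 ± 1.72, Fasn with 32.7 ± 6.37 and Elovl5 with 27.8 ± 1.89 CPM per kb. Below these came Acaca with 12.5 ± 1.49, Fads1 with 4.16 ± 0.387, Acss2 with 0.961 ± 0.0495 and Fads2 with 0.413 ± 0.136 CPM per kb. In that order Fasn and Elovl5 were the only neighbours closer than the sum of their SDs. In lymphatic cells Scd2 (94.5 ± 29.7) and Acly (85.4 ± 24.5 CPM per kb) led and did not differ beyond their spread. From Scd1 at 43.3 ± 10.9 down to Acss2 at 2.60 ± 0.467 CPM per kb, every lymphatic neighbour was within the sum of the SDs of the pair. In culture Scd2 led with 422 ± 15.7 CPM per kb, far above Scd1 (148 ± 4.49) and Acly (139 ± 6.91), whose gap was within their spread. Fads2 stood sixth in culture with 55.1 ± 1.98 CPM per kb, within the spread of Fasn (57.8 ± 9.10), and last in hematogenous cells.

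**Figure D4:**
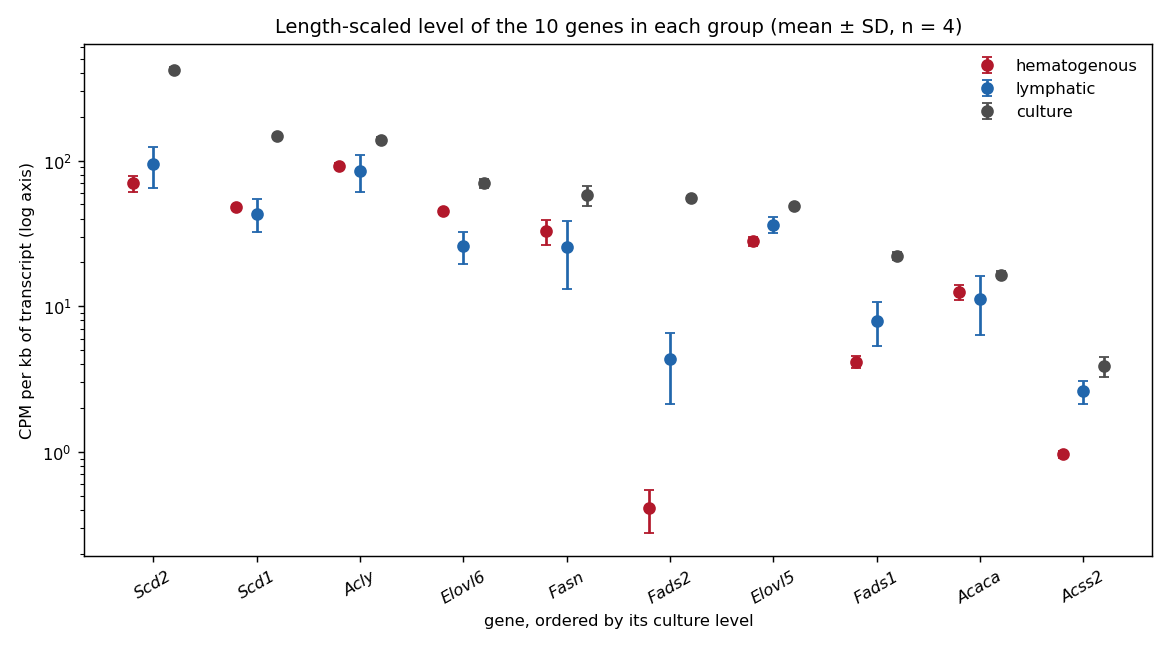
CPM per kb of transcript (vertical axis, log scale) as mean ± SD over 4 libraries for the hematogenous, lymphatic and culture groups, with genes ordered by their culture level. Fads2 spans the widest range, 0.413 CPM per kb in hematogenous, 4.33 in lymphatic and 55.1 in culture cells.

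Genes of the regulator list, which also holds the sterol exporters and LXR targets Abca1 and Abcg1, were called in both directions. Of 14 tested genes of this SREBP, LXR and ChREBP list, 2 were higher (Abca1 and Abcg1) and 5 lower in hematogenous cells than in culture. In lymphatic cells 3 were higher (Abca1, Abcg1 and Nr1h3, the last at a mean of 1.87 CPM) and 3 lower than in culture. Over all genes tested, 13.9% were higher and 13.9% lower in hematogenous cells, and 13.4% higher and 13.0% lower in lymphatic cells. The median log2 change of the 14 genes was 0.19 in hematogenous and 0.00023 in lymphatic cells. Srebf1, which encodes SREBP-1, had 33.2, 36.4, 31.2 and 25.8 CPM in hematogenous libraries 1 to 4 and 27.3, 16.6, 46.1 and 39.5 CPM in lymphatic libraries 1 to 4, against 91.9, 94.3, 57.6 and 81.6 CPM in culture libraries 1 to 4. It was lower than culture in hematogenous cells (log2 change −1.36 ± 0.26, adjusted p = 0.00136) and lymphatic cells (−1.33 ± 0.26, adjusted p = 0.00188). Srebf2, which encodes SREBP-2, was lower than culture by −1.13 ± 0.20 (adjusted p = 7.35e-04) in hematogenous and −1.65 ± 0.20 (adjusted p = 5.10e-05) in lymphatic cells on the log2 scale. Neither differed between the routes beyond the threshold (adjusted p = 0.963 for Srebf1 and 0.0801 for Srebf2).

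Insig1, a sterol-responsive SREBP target that holds SREBP back, had 46.5, 35.3, 46.8 and 51.9 CPM in hematogenous libraries 1 to 4 and 76.4, 90.4, 82.9 and 58.9 CPM in lymphatic libraries 1 to 4, against 540, 528, 551 and 527 CPM in culture libraries 1 to 4. Its groups ordered like those of Fads1 and Fads2, without overlap, and its log2 change was −3.58 ± 0.15 (adjusted p = 2.64e-09) in hematogenous cells, −2.80 ± 0.15 (adjusted p = 2.69e-08) in lymphatic cells and −0.78 ± 0.14 between the routes (adjusted p = 0.00177). Abca1, a cholesterol exporter and LXR target, moved the other way, with 12.4, 20.5, 8.22 and 12.2 CPM in hematogenous libraries 1 to 4 and 4.94, 6.66, 5.99 and 3.49 CPM in lymphatic libraries 1 to 4, against 1.79, 1.91, 1.40 and 1.27 CPM in culture libraries 1 to 4. It was higher in hematogenous cells (log2 change 3.07 ± 0.32, adjusted p = 6.21e-06) and lymphatic cells (1.73 ± 0.32, adjusted p = 0.00118) than in culture and higher in hematogenous than in lymphatic cells (1.34 ± 0.27, adjusted p = 0.00354). Between the routes 2 genes of the list were higher in hematogenous cells, Abca1 and the SREBP-cleaving protease Mbtps1, where 10.9% of all tested genes were higher. Another 2 were lower, Insig1 and Mlx, where 11.4% of all tested genes were lower. The count of list genes higher in hematogenous cells than in culture was 4 without lymphatic 4 and 1 without culture 3, culture 4 or hematogenous 2. That of list genes higher in hematogenous than in lymphatic cells was 1 without hematogenous 1, 2 or 3.

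Sterol synthesis, the other arm driven by SREBP, was lower almost throughout. Of its 20 genes, 19 were lower and 0 higher in hematogenous cells than in culture, with a median log2 change of −2.23, and 19 were lower and 0 higher in lymphatic cells than in culture, with a median of −1.89. The share of all tested genes that were lower was 13.9% in hematogenous and 13.0% in lymphatic cells. Msmo1 and Hmgcs1 were among the steepest, at −3.24 ± 0.13 and −3.16 ± 0.13 in hematogenous cells and −2.46 ± 0.12 and −2.71 ± 0.13 in lymphatic cells on the log2 scale (adjusted p between 9.94e-10 and 1.27e-08). Between the routes 7 sterol genes were lower in hematogenous cells and Cyp51 was higher, where 11.4% of all tested genes were lower and 10.9% higher. That count of 7 was 11 without lymphatic 4 and 4 without hematogenous 2, and 2 were higher without lymphatic 3.

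Genes that feed carbon and NADPH into synthesis were lower in part. Of 9 tested genes of citrate export and NADPH supply, 3 were lower and 0 higher in each lymph node group than in culture. For all tested genes the share lower was 13.9% in hematogenous and 13.0% in lymphatic cells. Slc25a1, the mitochondrial citrate carrier, averaged 32.8 CPM in hematogenous and 30.5 CPM in lymphatic cells, against 107 CPM in culture (log2 change −1.70 ± 0.18 in hematogenous cells, adjusted p = 7.35e-06, and −1.81 ± 0.18 in lymphatic cells, adjusted p = 6.71e-06). Idh1, the cytosolic NADP-dependent isocitrate dehydrogenase, averaged 9.22 CPM in hematogenous and 15.0 CPM in lymphatic cells, against 38.2 CPM in culture, and was lower in hematogenous than in lymphatic cells (log2 change −0.69 ± 0.17, adjusted p = 0.0123). Acss1, the mitochondrial counterpart of Acss2, was higher in hematogenous than in lymphatic cells by 0.93 ± 0.18 (adjusted p = 0.00228), opposite in sign to Acss2. Against culture Acss1 was lower in lymphatic cells (log2 change −0.66 ± 0.18, adjusted p = 0.0135) and was not called in hematogenous cells (0.27 ± 0.17, adjusted p = 0.286). Idh1 was the only gene of the list called lower between the routes, where 11.4% of all tested genes were lower. That count was 3 without lymphatic 2 and 2 without lymphatic 4. Without lymphatic 2, 1 gene was higher in lymphatic cells than in culture.

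Most of the other tested genes listed with elongation and desaturation were lower in hematogenous cells than in culture, and fewer were lower in lymphatic cells. Of 12 tested genes among 19, 9 were lower in hematogenous cells than in culture, with a median log2 change of −0.91. The 1 higher was Acacb, a second acetyl-CoA carboxylase and neither elongase nor desaturase, at a mean of 2.11 CPM against 0.490 CPM in culture. In lymphatic cells 5 were lower and 0 higher than in culture, with a median of −0.37. The share of all tested genes lower was 13.9% in hematogenous and 13.0% in lymphatic cells. The lymphatic count of 5 was 9 without lymphatic 4 and 3 without culture 1 or culture 3. Tecr, the reductase that closes each elongation cycle, was lower than culture by −1.20 ± 0.16 (adjusted p = 6.14e-05) in hematogenous and −0.77 ± 0.16 (adjusted p = 0.00245) in lymphatic cells on the log2 scale. Elovl1 and the sphingolipid desaturase Degs1 were lower in hematogenous cells than in lymphatic cells, by −0.55 ± 0.10 (adjusted p = 0.00169) and −1.13 ± 0.16 (adjusted p = 3.12e-04), and neither passed between lymphatic cells and culture (adjusted p = 0.0937 and 0.725). Between the routes 5 of the 12 were lower and 1 higher, where 11.4% of all tested genes were lower and 10.9% higher. The higher gene was again Acacb, which was called higher in no fit that left out lymphatic 2, hematogenous 1 or hematogenous 4.

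Against culture, genes that activate and take up fatty acids and those listed for glycerolipids were called lower more often than higher. Among the listed genes of lipid storage and release, Plin2, Dgat1 and Pnpla2 were called in neither comparison with culture. Of 7 tested acyl-CoA synthetase genes, 4 were lower and 2 higher in hematogenous cells than in culture, and 3 were lower and 0 higher in lymphatic cells. Among all tested genes, 13.9% were lower and 13.9% higher in hematogenous cells, and 13.0% lower and 13.4% higher in lymphatic cells. Acsl3 and Acsl4, which activate long and polyunsaturated chains, were lower by −1.60 ± 0.12 (adjusted p = 3.52e-07) and −1.45 ± 0.16 (adjusted p = 8.89e-06) in hematogenous cells and by −1.05 ± 0.12 (adjusted p = 2.40e-05) and −0.94 ± 0.15 (adjusted p = 4.81e-04) in lymphatic cells on the log2 scale. Acsbg1, another acyl-CoA synthetase, had 23.4, 16.3, 18.3 and 31.7 CPM in hematogenous libraries 1 to 4 and 8.66, 4.83, 7.49 and 6.75 CPM in lymphatic libraries 1 to 4, against 4.51, 5.04, 3.01 and 5.76 CPM in culture libraries 1 to 4. Its hematogenous libraries lay above all others, 3.23-fold above lymphatic cells (log2 change 1.69 ± 0.25, adjusted p = 4.43e-04). Between the routes 4 activation genes were lower and 2 higher (Acsbg1 and Acsf2) in hematogenous cells, where 11.4% of all tested genes were lower and 10.9% higher. Acsf2 was higher in hematogenous than in lymphatic cells by 0.80 ± 0.17 (adjusted p = 0.00473). Against culture it was lower in lymphatic cells (−0.63 ± 0.17, adjusted p = 0.0152) and not called in hematogenous cells (adjusted p = 0.511). The genes lower between the routes numbered 2 without lymphatic 1, lymphatic 2, hematogenous 1 or hematogenous 2. Those higher in hematogenous cells than in culture numbered 1 without culture 1, 3 or 4 or hematogenous 1 or 2.

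Among 8 tested uptake and binding genes, 4 were lower and 1 higher in hematogenous cells than in culture, where 13.9% of all tested genes were lower and 13.9% higher. In lymphatic cells 3 were lower and 1 higher than in culture, where 13.0% of all tested genes were lower and 13.4% higher. Between the routes 3 were lower and 0 higher in hematogenous cells, where 11.4% of all tested genes were lower. Fabp5, an intracellular fatty acid binding protein, had 122, 128, 145 and 143 CPM in hematogenous libraries 1 to 4 and 288, 355, 268 and 509 CPM in lymphatic libraries 1 to 4, against 522, 422, 496 and 475 CPM in culture libraries 1 to 4. Lymphatic 4 reached into the culture range, and hematogenous cells lay below both other groups, by −1.83 ± 0.18 (adjusted p = 3.33e-06) against culture and −1.40 ± 0.18 (adjusted p = 1.44e-04) against lymphatic cells on the log2 scale. The single uptake gene higher in hematogenous cells than in culture was Slc27a1, a count that was 0 without culture 3 or hematogenous 1 and 2 without lymphatic 4, and the single one higher in lymphatic cells was Lpl, lost without culture 1. Both were singled out after their values were seen.

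Of 14 tested glycerolipid genes, 7 were lower and 2 higher in hematogenous cells than in culture, where 13.9% of all tested genes were lower and 13.9% higher. In lymphatic cells 5 were lower and 1 higher than in culture, where 13.0% of all tested genes were lower and 13.4% higher. Between the routes 2 were lower and 2 higher in hematogenous cells, where 11.4% of all tested genes were lower and 10.9% higher. Gpam, which starts glycerolipid assembly, averaged 131 CPM in hematogenous and 163 CPM in lymphatic cells, against 306 CPM in culture (log2 change −1.23 ± 0.17 in hematogenous cells, adjusted p = 8.54e-05, and −0.91 ± 0.17 in lymphatic cells, adjusted p = 0.00118). Agpat3 and Lpcat1, acyltransferases of phospholipid assembly, were higher in hematogenous than in lymphatic cells by 0.75 ± 0.14 (adjusted p = 0.00169) and 0.53 ± 0.12 (adjusted p = 0.00694). The gene higher in lymphatic cells than in culture was Agpat5, a call lost without culture 2, 3 or 4 or lymphatic 2.

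Genes listed for the separate mitochondrial pathway of fatty acid synthesis were called in both directions. This list also holds Lias, Lipt1 and Lipt2, which act in lipoic acid synthesis and attachment. Of its 8 tested genes, 1 was higher and 1 lower in hematogenous cells than in culture, near the shares of 13.9% and 13.9% over all tested genes. In lymphatic cells 3 were higher and 0 lower than in culture, where 13.4% of all tested genes were higher and 13.0% lower. Between the routes, 3 of the 8 were lower and 0 higher in hematogenous than in lymphatic cells, where 11.4% of all genes were lower. These 3 were Lias (log2 difference −0.59 ± 0.15, adjusted p = 0.0109), Mecr (−0.65 ± 0.17, adjusted p = 0.0169) and Lipt1 (−0.96 ± 0.21, adjusted p = 0.00478), the last of them named after its value was seen. Cbr4, a subunit of the mitochondrial ketoacyl reductase, was higher than culture by 0.58 ± 0.14 (adjusted p = 0.00725) in hematogenous and 0.45 ± 0.14 (adjusted p = 0.0302) in lymphatic cells on the log2 scale. The median log2 change was −0.09 in hematogenous and 0.20 in lymphatic cells. Without lymphatic 4, 3 were higher and 3 lower in hematogenous cells and 1 was lower in lymphatic cells. Without lymphatic 2, 2 were lower in hematogenous cells, and without culture 2 or culture 3, 1 was higher in lymphatic cells.

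**Figure D5:**
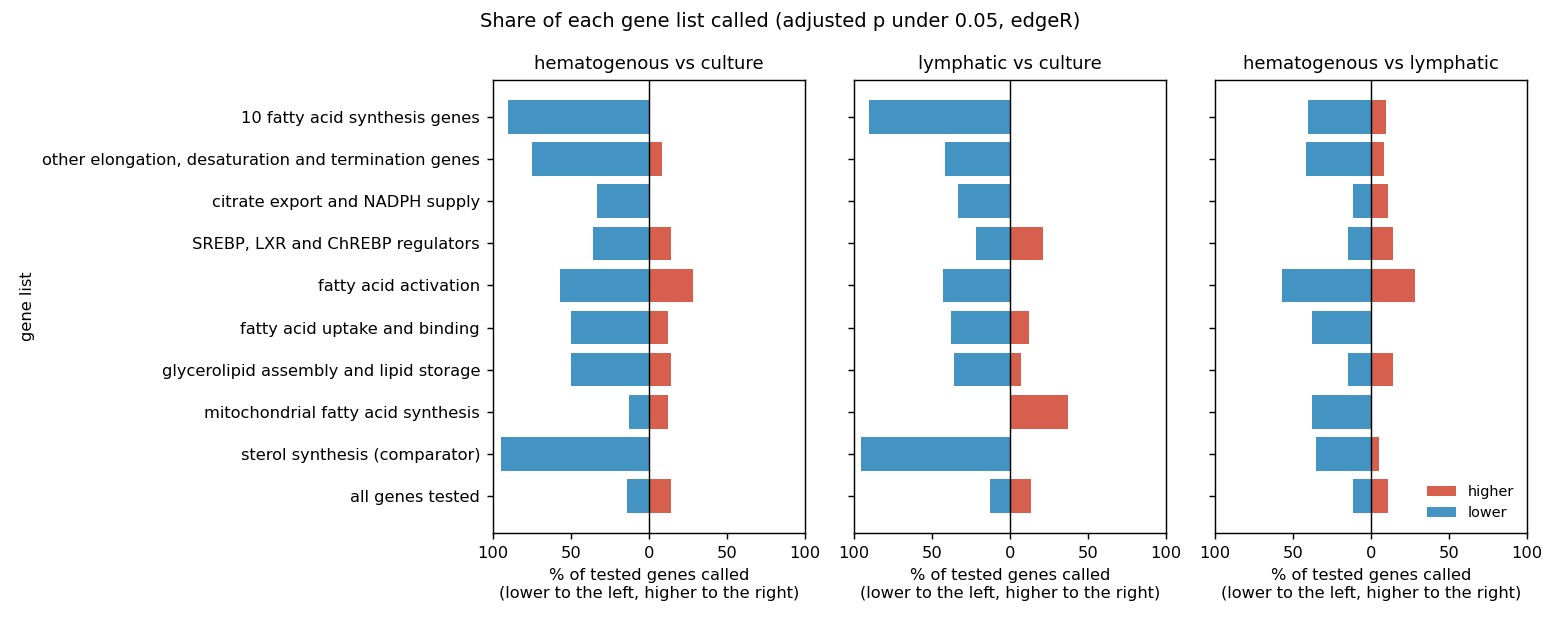
Percent of the tested genes of each list called lower (bars to the left) or higher (bars to the right) in the 3 comparisons, with the 10 fatty acid synthesis genes at the top and all 13535 tested genes at the bottom. The 10 genes (9 lower) and sterol synthesis (19 of 20 lower) have the longest bars against culture, and mitochondrial fatty acid synthesis has none to the left in lymphatic cells.

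Likeness to the pathway was measured as the root mean square difference between a gene's log2 CPM and the median of the 10 genes, each centred on its own mean, over the 12 libraries. The closest genes outside the pathway were Mmab (0.148), Dennd1a (0.166), Gpam (0.167), Aco1 (0.170), Kdm3a (0.171), Itprid2 (0.171), Xpr1 (0.175), Numb (0.176), Tbc1d24 (0.193) and Fam126a (0.194). The 10 genes themselves lay farther from their median, from 0.261 for Scd1 to 2.32 for Fads2, so closeness to it is not particular to the pathway. Mmab averaged 24.9 CPM in hematogenous and 28.7 CPM in lymphatic cells, against 68.0 CPM in culture. The distances were larger for Fads2. Its nearest genes were Papss2 (0.850), Jag2 (0.855), Gm14506 (0.864), Asph (0.920) and Kif26a (0.933), which like Fads2 were lowest in hematogenous and highest in culture cells. Papss2 averaged 0.924 CPM in hematogenous and 3.41 CPM in lymphatic cells, against 38.4 CPM in culture, and Jag2 averaged 0.232 CPM in hematogenous and 2.12 CPM in lymphatic cells, against 23.5 CPM in culture. These genes were picked for their pattern, so their values are a description.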

How the data were processed

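Raw read counts per gene, not normalized, were deposited by the authors for 12 libraries (4 each hematogenous, lymphatic and culture, grouped by title). Sequencing was single-end from stranded libraries (per the labels' protocols), and reads were processed with FastQC 0.11.9, Trimmomatic 0.39, HISAT2 2.1.0 and HTSeq 2.0.2 on GRCm39, per the submitters' processing notes. The 5 summary lines, 30.3% to 36.5% of reads, were left out. Symbols, transcript lengths and promoters came from an older annotation (GRCm38.p6), which named 91.8% of identifiers.

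In R 4.3.3, edgeR 4.0.16 ran the quasi-likelihood F test with TMM factors, filterByExpr and group as the only term over all 12 libraries. The common dispersion was 0.0457, with 9 residual degrees of freedom. Adjusted p-values are Benjamini-Hochberg over 13535 genes, two-sided, at 0.05. SE is approximate, the log2 change divided by the root of F. CPM used TMM factors, and log2 CPM for likeness a prior count of 2. Ratios added 0.5 to counts and were tested by exact permutation. The fit was checked on simulated counts. Counts without molecular identifiers carry more than counting error.

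Named genes are the 10 enzymes, Srebf1, Srebf2 and Insig1, up to 4 called genes per list and comparison by the largest change at 10 CPM or more in the higher group, and the nearest genes by likeness. Genes outside this rule were named where a count was small, and 1 gene under the rule is not reported here. The 10 enzymes and all lists, 188 genes of which 1 was not matched, were chosen with earlier results of these data known. Alternatives were other size factors, no filter, DESeq2 1.42.0, limma-voom (limma 3.58.1), 2 groups only, a replicate block, a fold over 1.5 and leaving out each library.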

Additional observations from a re-analysis of the deposited data

Results flagged for a closer look

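In 3 of 168 groups of 4 libraries, a library stood far from the others by Dixon's test, where chance gives about 1 in 20 groups. Acaca was low in lymphatic 4 (38.1 CPM), Elovl5 in hematogenous 1 (69.6 CPM) and Gpam in culture 1 (289.7 CPM).

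The change against culture differed between hematogenous and lymphatic cells for 5 enzymes, by the test of the difference itself in edgeR. On the log2 scale the difference was −1.43 for Acss2 (adjusted p = 1.97e-04), −0.93 for Fads1 (adjusted p = 0.00364), −3.36 for Fads2 (adjusted p = 4.43e-05), −0.39 for Elovl5 (adjusted p = 0.0214) and 0.79 for Elovl6 (adjusted p = 0.00308). All 4 hematogenous libraries lay on the stated side of all 4 lymphatic libraries for each of them. The ratios of paired enzymes also differed between the routes, by −0.58 for Scd2 to Scd1, −2.37 for Fads2 to Fads1 and 1.21 for Elovl6 to Elovl5 (exact permutation, adjusted p = 0.0321 each). The causes were not tested.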

How the results depend on the processing

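DESeq2 size factors, DESeq2 and limma-voom kept the same number of the 10 enzymes called, 9 lower in hematogenous and 9 lower in lymphatic cells than in culture, and 4 lower and 1 higher between the routes. Testing for a fold over 1.5 left 5, 5 and 2 lower and 0 higher, as that stricter test is built to do. Leaving out each library gave 7 to 10, 8 to 10 and 3 to 5 lower and 1 higher. With 2 groups in the fit, 10, 8 and 3 were lower. Without lymphatic 4 the differences between the routes reversed for Acly (−0.058) and Acaca (−0.12), neither called, and the cause was not tested. Over all omissions of 1 library they ran from −0.058 to 0.25 for Acly and from −0.12 to 0.29 for Acaca. Without the filter on low counts, Acss2 and Elovl5 in lymphatic cells against culture (adjusted p = 0.125 and 0.0735) and Elovl5 between the routes (0.0961) were not called, while Acaca in lymphatic cells (0.00871) and Scd2 between the routes (0.0460) were. With 2 groups in the fit, Acaca in hematogenous cells was called (6.98e-04), and Acss2 in lymphatic cells (0.0585) and Elovl5 between the routes (0.0805) were not. In the other lists, that fit called 6 in place of 2 genes of the regulator list higher, 3 higher and 3 lower in place of 1 and 1 mitochondrial genes, and 1 higher and 5 lower in place of 0 and 3 genes of citrate export and NADPH supply in hematogenous cells than in culture. It called 1 in place of 3 mitochondrial genes and 0 in place of 1 uptake and 1 glycerolipid gene higher in lymphatic cells than in culture. Between the routes it called 2 in place of 4 activation genes, 4 in place of 7 sterol genes and 0 in place of 1 citrate and NADPH gene lower. It called 0 in place of 1 gene of the elongation list (Acacb), 0 in place of 1 sterol gene and 1 in place of 2 genes of the regulator list higher. Without the filter, 0 in place of 1 mitochondrial gene was higher in hematogenous cells than in culture, 1 in place of 3 mitochondrial, 2 in place of 1 uptake and 3 in place of 1 glycerolipid genes were higher in lymphatic cells than in culture, and 2 in place of 1 citrate and NADPH genes were lower between the routes. The median of all genes moved by less than 0.1 on the log2 scale in every setting.

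Replicate numbers gave no sign of pairing. The 12 correlations between same-numbered libraries, taken on deviations of log2 CPM from the group mean, ran from −0.181 to 0.0919. A replicate block left 9, 9 and 4 of the 10 enzymes lower and 1 higher, and in the other lists it left 3 in place of 5 elongation genes lower, 1 in place of 3 mitochondrial genes higher and 0 in place of 1 glycerolipid gene higher in lymphatic cells than in culture, 1 in place of 2 activation genes higher in hematogenous cells than in culture and 2 in place of 4 activation genes lower between the routes. With 10 added to counts in place of 0.5, the Fads2 to Fads1 difference between the routes was −1.66. Leaving out each library, the differences of the Scd2 to Scd1, Fads2 to Fads1 and Elovl6 to Elovl5 ratios ran from −0.68 to −0.53, −2.52 to −2.20 and 1.11 to 1.27 between the routes. Low read numbers limit Fads2 and Acss2 in hematogenous libraries.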
